A study of Mus musculus with 7 samples.

Results

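This section describes 10 mouse genes of centriole amplification, Deup1, Ccno, Cdc20b, Plk4, Sass6, Stil, Cep152, Cep63, Ccp110 and Cep120, out of 32531 gene symbols in the count tables. The genes were taken by name, and all 10 were present, Deup1 under its older symbol Ccdc67. RNA came from dissections of the ventricle region of adult mouse brain. All mice were of the line Dcdc2a-TRAP ES2575, written Dcdc2a-EGFP/Rpl10a-ES2575 in the sample titles, with no treatment given in the labels. In TRAP (translating ribosome affinity purification), a transgene adds EGFP to the ribosomal protein Rpl10a, here driven by Dcdc2a, and tagged polysomes are captured with antibodies to EGFP. The 3 IP libraries (numbers 1, 3 and 4) hold this ribosome-bound RNA, and the 4 Input libraries (numbers 1 to 4) hold total RNA of homogenate. Both groups come from the same line, so the Input also carries the tag. The labels do not say whether libraries came from separate animals, so the p-values measure only the spread between these libraries, which may be technical.

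Ependymal cells line the ventricles and carry many motile cilia, each grown from a basal body, which is a docked centriole. A dividing cell makes a single new centriole beside each old one, whereas a differentiating multiciliated cell makes many at once, partly beside its old centrioles and largely on ring-like bodies called deuterosomes. In the mouse brain this happens as ependymal cells mature after birth, and the deuterosomes then disassemble. The comparison of IP with Input asks which of these RNAs were higher in the captured RNA of the adult tissue than in all RNA of the dissection.

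Counts assigned to genes were 42422439 to 52175180 per IP library and 37203427 to 44754345 per Input library. Levels are CPM, counts scaled to library size, here with the TMM method that aligns the bulk of genes between libraries, and 3 counts correspond to 0.0585 to 0.0819 CPM, counting error only. The summed level of 10 ependymal markers was 205, 2917 and 2287 CPM in IP 1, IP 3 and IP 4, and 21.5 to 45.8 CPM in the Inputs. All 10 were called higher in IP by edgeR, 3 with the replicate number as a block and 0 by limma-voom. Foxj1, the transcription factor of motile ciliogenesis, had 32.2, 345 and 427 CPM in IP 1, IP 3 and IP 4, and 4.34 to 12.999 CPM in the Inputs. Dcdc2a, which drives the tag, had 43.6, 411 and 175 CPM in these IP libraries, and 27.7 to 73.9 CPM in the Inputs. IP 1 thus stood apart from IP 3 and IP 4, and lay within the Input range for Dcdc2a. Markers of other cells remained in IP. The 8 neuron markers summed to 7275 to 8334 CPM in IP and 9913 to 12348 CPM in Input. The 8 oligodendrocyte markers summed to 2605 to 4286 CPM in IP and 4214 to 5799 CPM in Input. A level in IP therefore does not by itself place an RNA on tagged ribosomes, and the untagged part was not tested. Reads in no gene made up 18.4% of lines in IP 1, 8.85% in IP 3 and 8.15% in IP 4, and 15.2% to 18.2% in the Inputs. Reads that HTSeq could not place between overlapping genes made up 1.91%, 2.01% and 1.51% of lines in IP 1, IP 3 and IP 4, and 9.33% to 12.9% in the Inputs, and their part in the values of genes with overlapping neighbours was not tested. Because IP 1 differed so much, the values of the 9 tested members without it are given beside those with it.

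Of the 10 genes, 9 passed the filter on low counts, and 1 of these, Deup1, was called higher in IP. The call is edgeR's quasi-likelihood test with a Benjamini-Hochberg adjusted p under 0.05, which called 3.64% of all 17375 tested genes higher and 2.16% lower. None of the 9 was called lower, only Deup1 had an unadjusted p under 0.05, DESeq2 called 1 member and limma-voom 0. The median log2 fold (IP over Input) of the 9 members was 0.06, the same as the 0.06 of all tested genes, and the 8 other than Deup1 lay between -0.76 and 0.76. No member had all 3 IP libraries above all 4 Inputs, as 9.55% of tested genes did, or all below, as 10.4% did. Without IP 1, 2 members were called higher, Deup1 and Cep63, where 12.5% of tested genes were. With the replicate number as a block, 0 members were called, where 0.553% of tested genes were called higher. The call share of the 9 members therefore rests on a single gene.

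**Figure D1:**
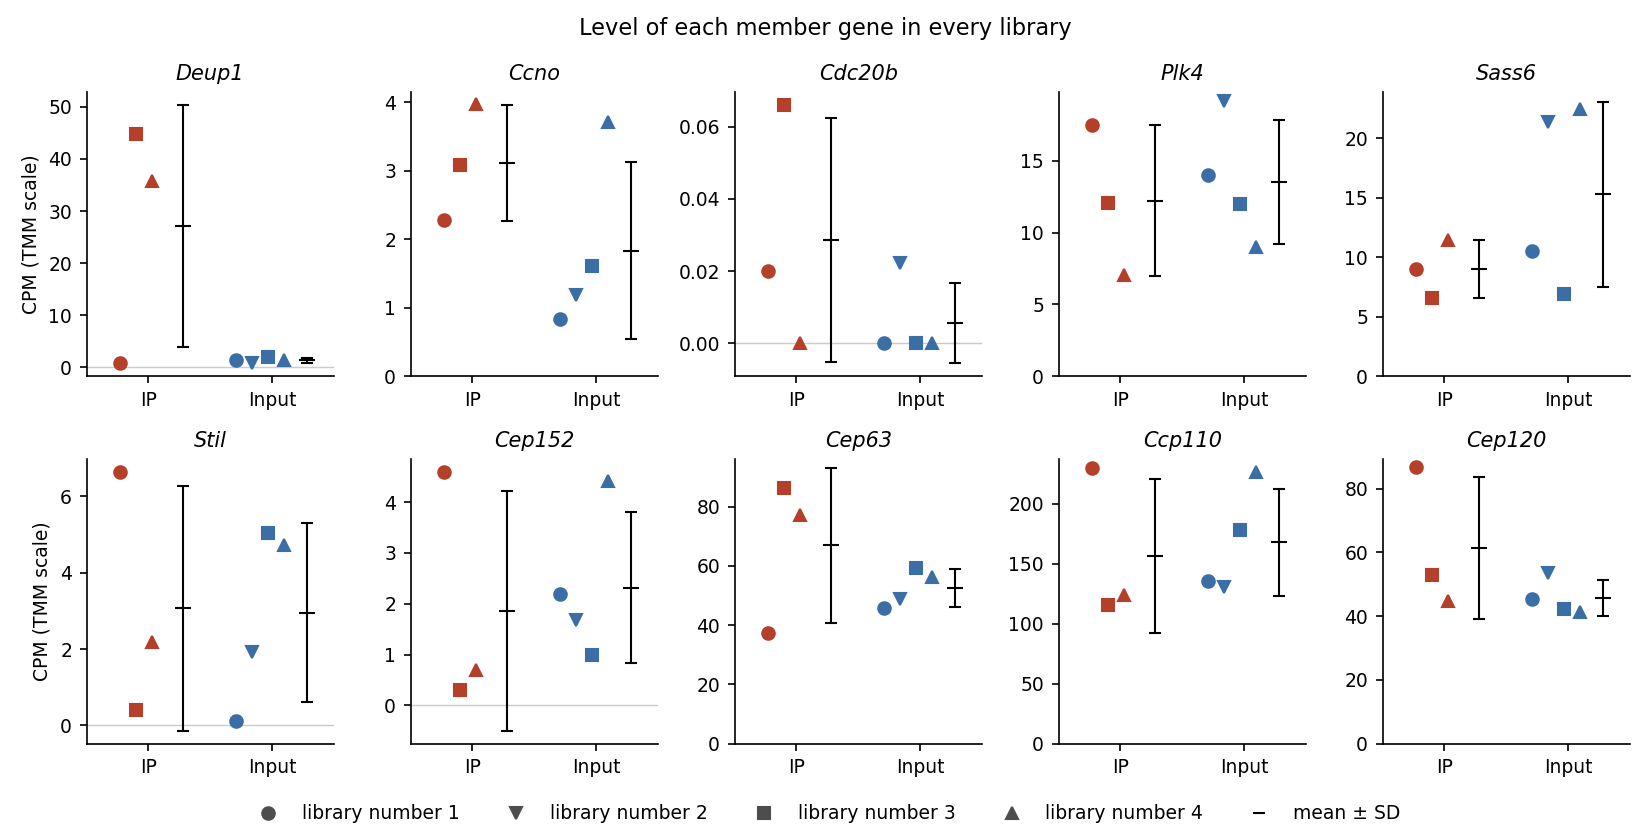
CPM of each of the 10 genes in every library, with IP (red, 3 libraries) left of Input (blue, 4 libraries), marker shapes giving the library number, and black bars the mean ± SD. Deup1 sits at 44.8 and 35.8 CPM in IP 3 and IP 4 and between 0.801 and 2.02 CPM elsewhere, and in no gene do all IP points clear all Input points.

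Deup1 encodes the scaffold protein of the deuterosome, a relative of Cep63 that recruits Cep152. It was high in 2 of the 3 IP libraries and low in every other library. The counts were 40, 2034 and 1835 in IP 1, IP 3 and IP 4, which are 0.801, 44.8 and 35.8 CPM. In Inputs 1 to 4 they were 55, 38, 74 and 58, which are 1.35, 0.849, 2.02 and 1.42 CPM. IP 3 and IP 4 were far above every Input, and IP 1 was below every Input. The mean was 27.1 ± 23.2 CPM in IP (SD, n = 3) and 1.41 ± 0.48 CPM in Input (SD, n = 4), a log2 fold of 4.26 ± 1.001 (SE, adjusted p = 0.0417 by edgeR).

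The call depended on the fit and on single libraries. It was lost with the replicate number as a block (log2 fold 3.19, edgeR adjusted p = 0.294), with limma-voom (2.99, adjusted p = 0.496) and without a low-count filter (edgeR adjusted p = 0.0777). It was lost without IP 3, IP 4 or any 1 of the Inputs, with edgeR adjusted p from 0.0735 to 0.112 and log2 folds from 3.70 to 4.48. The same omissions also reduced the calls over all genes, from 633 higher to 343 without IP 3, 10 without IP 4 and 4 to 21 without an Input. The call held without IP 1 (log2 fold 4.84, edgeR adjusted p = 6.09e-07) and with DESeq2 (adjusted p = 1.18e-05). Against the Input of the same lane, the log2 ratios of Deup1 were -0.72 for number 1, 4.44 for number 3 and 4.61 for number 4.

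The 12 markers of mural cells and fibroblasts, cells of vessel walls and meninges, were also at their highest sum in IP 3 and IP 4. Of these, 7 were called higher (10 without IP 1, 1 with the replicate block and 0 by limma-voom). Their summed level was 104, 1403 and 680.5 CPM in IP 1, IP 3 and IP 4, and 41.2 to 94.8 CPM in the Inputs. Kcnj8 was the only marker of this list with 0 counts in a library. The 10 markers of choroid plexus, whose epithelium is also multiciliated, summed to 1314, 3237 and 3300 CPM in IP 1, IP 3 and IP 4, and 2314 to 4177 CPM in the Inputs, and 1 of them was called higher (3 without IP 1). The part of these cells in the Deup1 result was not tested, nor was that of the lower ependymal marker level of IP 1. In whole tissue, a low level cannot tell fewer cells of a type from less RNA per cell.

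Deup1 (ENSMUSG00000039977.16) lies on chromosome 9, from 15559864 to 15627933 on the minus strand of mm10 (GENCODE M21), with 14 exon blocks. The antisense model 4930540M03Rik, from 15619857 to 15641224, overlaps the start of Deup1 and runs on beyond it, but shares no exon bases. That model had 16 counts in IP 3, 1 in Input 3 and 0 in the other libraries. Of the 36-base words in Deup1 transcripts, 0.421% occur in transcripts of other genes and none in another of the 10 genes, so reads of Deup1 and its relative Cep63 are separable at that length.

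Promoter windows, 250 bases before to 50 after the start of a gene, were available in RefSeq (GRCm38.p6) for 9 of the 10 genes, in 10 windows. They are shown for Deup1 and Ccno because these 2 deuterosome genes each hold a match to the X-box, the sequence bound by the RFX factors of ciliated cells. The X-box was searched on both strands as GTNNCC, any 2 bases, then GGNAAC, and is in capitals. The windows are chr9:15627797-15628096 on the minus strand and chr13:112987552-112987851 on the plus strand, both written 5′ to 3′ on the gene's strand.
Deup1: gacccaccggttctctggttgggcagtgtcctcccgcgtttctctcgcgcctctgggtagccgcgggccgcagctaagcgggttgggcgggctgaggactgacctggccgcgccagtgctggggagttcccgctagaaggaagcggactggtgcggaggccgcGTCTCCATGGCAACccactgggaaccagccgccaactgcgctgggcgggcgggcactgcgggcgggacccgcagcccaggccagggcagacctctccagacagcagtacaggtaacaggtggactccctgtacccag
Ccno: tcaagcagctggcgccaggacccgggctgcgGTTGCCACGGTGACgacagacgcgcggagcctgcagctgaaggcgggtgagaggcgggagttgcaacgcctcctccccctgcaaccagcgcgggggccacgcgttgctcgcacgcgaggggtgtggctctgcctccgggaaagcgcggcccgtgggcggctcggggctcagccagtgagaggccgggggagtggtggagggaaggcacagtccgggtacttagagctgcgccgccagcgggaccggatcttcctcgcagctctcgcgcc

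The capitals in the Deup1 window begin 87 bases before its RefSeq start. Those in the Ccno window, on the other strand, begin 219 bases before the RefSeq start there. The GENCODE M21 model of Deup1 starts further upstream, at 15627933 inside the window, so the capitals are not upstream of that model. Of all 32851 promoter windows, 1.29% held this X-box. The other motifs searched on both strands were the X-box half-site GTTGCC, E2F sites and forkhead sites. GTTGCC was in 12.5% of all windows and in those of Deup1, Ccno and Ccp110, overlapping the X-box in the first and second of these. The E2F forms TTTCCCGC, TTTGGCGC, TTTCGCGC or TTTGCCGC were in 2.26% of windows and in that of Cep63, and TTTGGCGG or GGCGGGAA in 2.68% and in those of Ccp110 and Cep152. TGTTTAC or TGTTTGT was in 9.95% of windows and in that of Ccp110. The motifs were chosen after expression values were seen, and a match is a description of letters, not a bound site.

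Ccno encodes cyclin O, an atypical cyclin needed for deuterosome-based centriole amplification. It lies on chromosome 13, from 112987802 to 112990777 on the plus strand (ENSMUSG00000042417.5, mm10). Its level was 2.28, 3.08 and 3.98 CPM in IP 1, IP 3 and IP 4, and 0.834, 1.18, 1.61 and 3.71 CPM in Inputs 1 to 4. The groups overlapped only because of Input 4, which was above IP 1 and IP 3. The mean was 3.12 ± 0.85 CPM in IP and 1.83 ± 1.29 CPM in Input (SD, n = 3 and 4), a log2 fold of 0.76 ± 0.74 (SE, adjusted p = 0.609 by edgeR). Without IP 1 it was 0.94 (edgeR adjusted p = 0.469).

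Cdc20b belongs to the Cdc20 family of cell cycle regulators, is found at deuterosomes, and hosts the miR-449 family in its second intron. It was close to undetected. The tables hold 1, 3 and 0 counts in IP 1, IP 3 and IP 4, and 0, 1, 0 and 0 counts in Inputs 1 to 4. No library exceeded 3 counts, 4 of the 7 held none, and the gene did not pass the filter. A count of 0 allows up to 0.0585 CPM in IP 4 and up to 0.0736, 0.0819 and 0.0737 CPM in Inputs 1, 3 and 4. The miRNA rows Mir449a, Mir449b and Mir449c were 0 in every library, where unprocessed host RNA rather than mature miRNA would be counted. Cdc20b lies on chromosome 13, from 113035111 to 113091195 on the plus strand (ENSMUSG00000078926.8, mm10), and shares 10.8% of its exon bases with the antisense model 4930563N14Rik, so its counts are uncertain.

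Ccno and Cdc20b flank Mcidas, a regulator that switches on the amplification genes with E2F factors. Mcidas had 1.24, 0.374 and 1.56 CPM in IP 1, IP 3 and IP 4, and 3.97, 1.39, 0.491 and 0.123 CPM in Inputs 1 to 4, with overlapping groups (log2 fold -0.49 ± 1.19 SE, edgeR adjusted p = 0.857). Gpx8, a peroxidase of the endoplasmic reticulum, lies inside Cdc20b on the other strand and shares no exon bases with it. Gpx8 had 3.74, 54.5 and 24.0 CPM in IP 1, IP 3 and IP 4, and 1.84, 2.55, 4.34 and 6.39 CPM in Inputs 1 to 4. Its log2 fold of 2.86 ± 0.76 (SE) missed the threshold (edgeR adjusted p = 0.0585) and passed it without IP 1 (edgeR adjusted p = 0.000116). Within this stretch of chromosome 13, the IP 3 and IP 4 levels were therefore high for Gpx8 and not for Ccno, Mcidas or Cdc20b.

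Plk4, Stil and Sass6 start every new centriole. Plk4 is the kinase that sets where and how many form, Stil is its substrate, and Sass6 builds the central cartwheel. None of them passed the test. Plk4 (chromosome 3, 40800019 to 40816883) had 17.5, 12.1 and 7.02 CPM in IP 1, IP 3 and IP 4, and 14.0, 19.2, 11.96 and 8.99 CPM in Inputs 1 to 4. The groups overlapped, although IP 4 was below every Input and Input 2 above every IP library, with a log2 fold of -0.15 ± 0.41 (SE, adjusted p = 0.877 by edgeR), and -0.50 without IP 1 (edgeR adjusted p = 0.439). Of the 36-base words in Plk4 transcripts, 5.96% occur in transcripts of other genes, so its counts are uncertain.

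Sass6 (chromosome 3, 116594982 to 116631004) had 9.01, 6.61 and 11.47 CPM in IP 1, IP 3 and IP 4, and 10.5, 21.3, 6.88 and 22.4 CPM in Inputs 1 to 4. Inputs 2 and 4 were about level with each other and above every other library, and the groups overlapped. The log2 fold was -0.76 ± 0.47 (SE, adjusted p = 0.381 by edgeR), and the same -0.76 without IP 1. Sass6 shares 24.5% of its exon bases with the antisense model Gm42893 and 6.36% with Trmt13 on the other strand, so its counts are uncertain.

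Stil (chromosome 4, 115000159 to 115043196) had 6.63, 0.396 and 2.18 CPM in IP 1, IP 3 and IP 4, and 0.123, 1.92, 5.05 and 4.72 CPM in Inputs 1 to 4. It varied widely within both groups, by 16.7-fold among IP libraries and 41.2-fold among Inputs, and IP 1 was the highest library. The lane ratios (log2) were 5.31 for number 1, -3.53 for number 3 and -1.09 for number 4, so the lanes disagreed in direction. The log2 fold was 0.06 ± 1.13 (SE, adjusted p = 0.983 by edgeR), and -1.19 without IP 1 and -0.55 with the replicate block.

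Cep152 and Cep63 form a ring on the old centriole that recruits Plk4. Cep152 (chromosome 2, 125563088 to 125625113, minus strand) had 4.59, 0.308 and 0.702 CPM in IP 1, IP 3 and IP 4, and 2.18, 1.68, 0.983 and 4.42 CPM in Inputs 1 to 4. IP 1 was the highest library, while IP 3 and IP 4 were below every Input. The log2 fold was -0.31 ± 1.01 (SE, adjusted p = 0.895 by edgeR), and -2.19 without IP 1 (edgeR adjusted p = 0.183). IP 3 and IP 4, where Deup1 was high, thus had the lowest Cep152 levels.

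Cep63 (chromosome 9, 102584588 to 102626534, minus strand) had 37.2, 86.4 and 77.2 CPM in IP 1, IP 3 and IP 4, and 45.7, 49.0, 59.4 and 56.1 CPM in Inputs 1 to 4. As for Deup1, IP 3 and IP 4 were above every Input and IP 1 was below every Input. The size differed, with a log2 fold of 0.35 ± 0.29 (SE, adjusted p = 0.529 by edgeR), and 0.64 without IP 1, where it was called (edgeR adjusted p = 0.032). Cep63 shares 2.49% of its exon bases with Anapc13 on the other strand, so its counts are uncertain.

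Ccp110 and Cep120 set centriole length. Ccp110 caps the distal end of a centriole and must leave before a cilium grows, and Cep120 promotes elongation. Ccp110 (chromosome 7, 118712552 to 118737024) had 230.1, 115 and 124 CPM in IP 1, IP 3 and IP 4, and 136, 130.4, 178 and 227 CPM in Inputs 1 to 4. IP 1 was the highest library and IP 3 and IP 4 were below every Input, with a log2 fold of -0.10 ± 0.29 (SE, adjusted p = 0.883 by edgeR). Without IP 1 it was -0.49 (edgeR adjusted p = 0.119).

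Cep120 (chromosome 18, 53681723 to 53744608, minus strand) had 86.7, 52.8 and 44.7 CPM in IP 1, IP 3 and IP 4, and 45.5, 53.6, 42.2 and 41.1 CPM in Inputs 1 to 4. IP 1 was again the highest, and the other IP libraries lay among the Inputs. The log2 fold was 0.43 ± 0.26 (SE, adjusted p = 0.379 by edgeR), and 0.09 without IP 1. Over the set, IP 1 was the highest of all libraries for 4 members (Stil, Cep152, Ccp110 and Cep120) and the lowest for 2 of the 9 tested (Deup1 and Cep63). Among all tested genes it was the highest for 21.6% and the lowest for 21.6%.

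**Figure D2:**
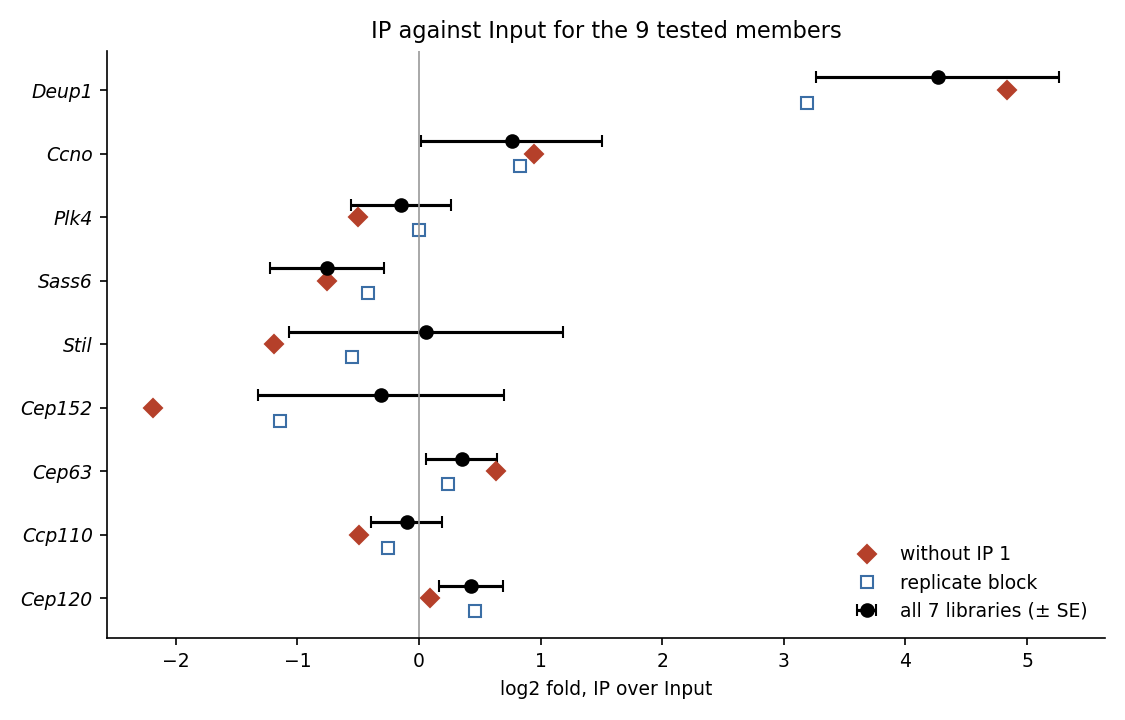
Log2 fold (IP over Input) of the 9 tested genes with all 7 libraries (black, ± SE), without IP 1 (red diamonds) and with the replicate number as a block (open blue squares). Deup1 lies at 4.26, 4.84 and 3.19 in these fits, and the other genes between -2.19 and 0.94.

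Set against exon length, the 10 genes spanned a wide range of levels. In IP the order in CPM per kilobase of exon was Ccp110 (18.9 ± 7.7), Cep120 (8.95 ± 3.25), Deup1 (8.19 ± 7.02), Cep63 (6.98 ± 2.73), Plk4 (1.78 ± 0.77), Sass6 (1.48 ± 0.40), Ccno (1.22 ± 0.33), Stil (0.53 ± 0.55), Cep152 (0.323 ± 0.410) and Cdc20b (0.016 ± 0.019, SD, n = 3 each). Each neighbouring pair in this order overlapped in range across libraries except Ccp110 against Cep120, Cep63 against Plk4, and Cep152 against Cdc20b. This order rests on means over unlike libraries. Deup1 stood ninth in IP 1 and second in IP 3 and IP 4, where it had 13.5 and 10.8 CPM per kilobase against 7.70 and 6.51 for Cep120, and Cep63 also stood above Cep120 in both. In Input, Ccp110 (20.3 ± 5.4), Cep120 (6.65 ± 0.82) and Cep63 (5.48 ± 0.66) led again, and Deup1 (0.426 ± 0.145) stood at the eighth place of the 10 (SD, n = 4 each). Among the 15650 tested genes with a length, the Deup1 mean exceeded 64.9% in IP and 14.0% in Input. The single IP libraries placed it at percentiles 9.6 (IP 1), 76.8 (IP 3) and 72.6 (IP 4), against 12.1 to 19.0 in the Inputs. Plk4 exceeded 28.6% of genes in IP and 34.9% in Input, and Cep152 9.25% in IP and 13.4% in Input.

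**Figure D3:**
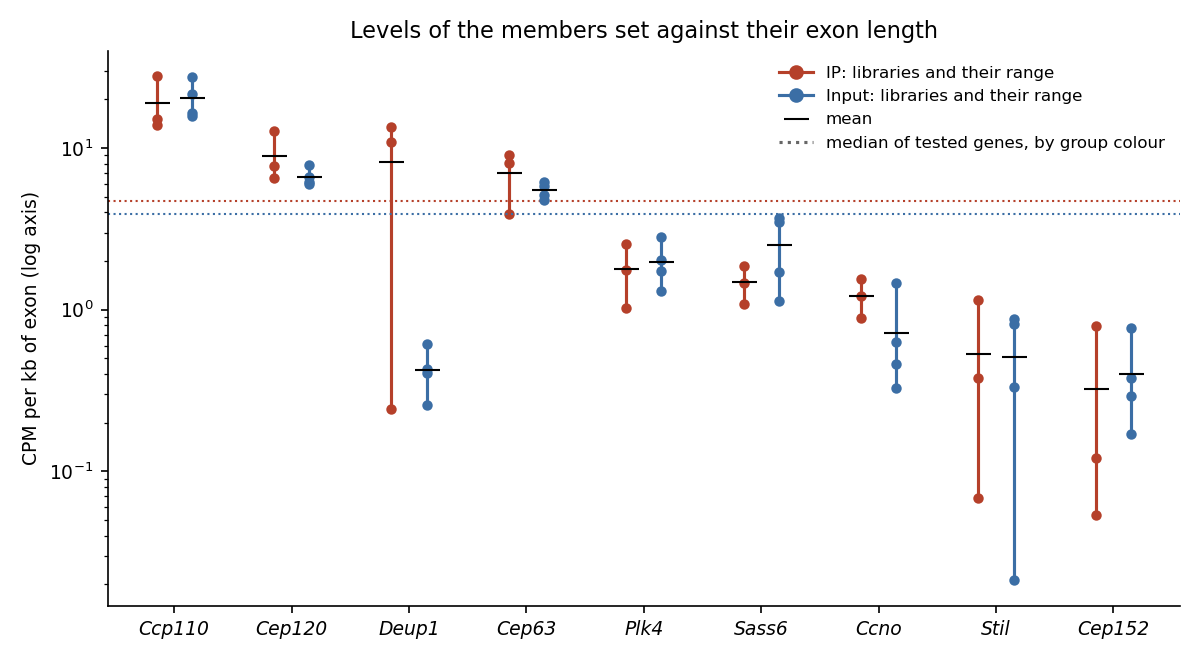
Levels of 9 genes in CPM per kilobase of exon on a log axis, for IP (red) and Input (blue), with points for libraries, lines for their range and black dashes for means. Cdc20b is left out because 4 libraries held no count, and the dotted lines are the medians of the tested genes (4.67 in IP and 3.92 in Input).

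Across the 7 libraries, the genes most like Deup1 in log2 CPM, among 13334 with a mean of at least 1 CPM, were Nudt4, Rab28 and Ctsl (Pearson r of 0.995, 0.995 and 0.994). Symbols with a Gm number, Rik or an accession were left out of this ranking. Foxj1 had r = 0.91, Cep63 0.91 and Ccno 0.59 with Deup1. Those most like Ccno were Nfkbiz, Ccl9 and Fmnl3 (0.98, 0.97 and 0.97), and those most like Plk4 were Kpna6, Atg9b and Senp3 (0.95 each). IP 3 and IP 4 stand far from the other 5 libraries for Deup1, so its coefficients rest on them and are given as a description.

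Genes that act before and after the 10 in the same process were read from the same fit. Of 14 regulators of multiciliated cell differentiation, 12 were tested and 5 called higher, with a median log2 fold of 0.27, while Foxn4 and Noto did not pass the filter. Myb, a factor of early multiciliated differentiation, had 8.23, 165 and 121 CPM in IP 1, IP 3 and IP 4, and 0.782 to 5.67 CPM in the Inputs (log2 fold 5.004 ± 0.95 SE, edgeR adjusted p = 0.0233). Ccdc78, placed at deuterosomes in Xenopus, had 1.92, 19.9 and 11.8 CPM in these IP libraries, and 0 to 0.38 CPM in the Inputs (6.20 ± 1.17 SE, edgeR adjusted p = 0.0205). Trp73 (4.36 ± 0.72) and Foxj1 (5.03 ± 0.78 SE, edgeR adjusted p = 0.0147 each) were called as well. These 4 genes were above every Input in each IP library. The fifth called gene was Rfx2, an RFX factor, at a log2 fold of 3.21 ± 0.67 (SE, adjusted p = 0.0286 by edgeR). Gmnc, which acts at the top of this pathway and was chosen here after its values were seen, had 1.42, 1.63 and 0.975 CPM in IP 1, IP 3 and IP 4, and 1.30 to 5.21 CPM in the Inputs. Its log2 fold was -1.14 ± 0.79 (SE, adjusted p = 0.439 by edgeR). With the replicate block 0 of the regulators were called, and without IP 1 5 were. Myb, Ccdc78 and Trp73 overlap models on the other strand and are uncertain.

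Of 28 further centriole assembly genes, 1 was called higher and 0 lower, with a median log2 fold of 0.38 (DESeq2 called 3 higher, limma-voom 1, and 6 had an unadjusted p under 0.05). The called gene was C2cd3, needed for distal centriole structure, with 76.0, 52.8 and 69.2 CPM in IP 1, IP 3 and IP 4, and 19.6 to 34.6 CPM in the Inputs (1.23 ± 0.26 SE, edgeR adjusted p = 0.0265). C2cd3 shares exon bases with Gm10603 and Ppme1 on the other strand and is uncertain. Of 18 appendage and basal body genes, 3 were called higher and 0 lower (median 0.75). These were Lrrc45 of the distal appendages (1.29 ± 0.31 SE, edgeR adjusted p = 0.0385), Cntrl of the subdistal appendages (1.31 ± 0.33, 0.0454) and the centrosomal gene Kiz (1.24 ± 0.32, 0.0492). With the replicate block 0 of either list were called higher, and without IP 1 5 and 8 were, with 2 and 1 lower. Over all tested genes, 3.64% were called higher with all libraries. Without IP 1, 12.5% of 18049 tested genes were called higher and 1724 genes lower.

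Of 18 genes of the pericentriolar material and satellites, 0 were called (6 at an unadjusted p under 0.05, DESeq2 1, limma-voom 0), with a median log2 fold of 0.27. The smallest p belonged to Tubg1, a gamma-tubulin (0.91 ± 0.30 SE, edgeR adjusted p = 0.101), and Cep290 (0.58 ± 0.22 SE, edgeR adjusted p = 0.153). Without IP 1, 3 were called higher, among them both of these, against 12.5% of all tested genes. Cep290 shares 7.58% of its exon bases with 4930430F08Rik on the other strand and is uncertain.

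Cell cycle genes were compared because a differentiating multiciliated cell reuses part of the mitotic oscillator. Of 14 such oscillator genes, 0 were called (2 at an unadjusted p under 0.05, DESeq2 2, limma-voom 0), with a median log2 fold of 0.63. Bub1b, of the spindle checkpoint, reached a log2 fold of 3.63 ± 1.06 (SE, adjusted p = 0.0738 by edgeR), and the securin gene Pttg1 one of 1.14 ± 0.36 (SE, edgeR adjusted p = 0.0963). Cdk1, Ccnb1, Ccna1, Fbxo43 and Espl1 had no count in at least 1 library. Of 22 genes of dividing cells, 0 were called (5 at an unadjusted p under 0.05, DESeq2 1, limma-voom 0), with a median of 0.01. The mitotic kinesin Kif11 had 3.12, 48.4 and 39.4 CPM in IP 1, IP 3 and IP 4, and 0.711 to 4.36 CPM in the Inputs (3.47 ± 0.89 SE, edgeR adjusted p = 0.0536), and Cenpf, of the kinetochore, a log2 fold of 2.07 ± 0.83 (SE, adjusted p = 0.173 by edgeR). Mki67, the common marker of dividing cells, chosen after its values were seen, had 1.92, 2.67 and 1.13 CPM in IP 1, IP 3 and IP 4, and 1.33 to 8.90 CPM in the Inputs. Its log2 fold went the other way, at -1.77 ± 0.72 (SE, adjusted p = 0.176 by edgeR). Without IP 1, 2 oscillator genes and 3 genes of dividing cells were called higher, against 12.5% of all tested genes.

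The structure of the finished cilium was read in the same way. Of 22 motile cilium structure genes, 14 were called higher and 0 lower, with a median log2 fold of 3.70, and 5 were with the replicate block and 19 without IP 1. Cfap44 (2.59 ± 0.36), Ccdc40 (4.24 ± 0.60), Rsph1 (5.51 ± 0.77) and Hydin (3.66 ± 0.55 SE) had the smallest p, with edgeR adjusted p of 0.011, 0.0117, 0.0129 and 0.0129. Hydin overlaps the antisense model Gm26832 and is uncertain. Within lanes, the median log2 ratio of the 22 was 1.33 for number 1, 3.95 for number 3 and 3.41 for number 4. For number 1, 16 of the 22 were above the Input of their lane, and 2 had a lower ratio than the -0.72 of Deup1. Among all 633 genes called higher, the IP 1 level was below every Input in 4, and Deup1 was 1 of them.

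**Figure D4:**
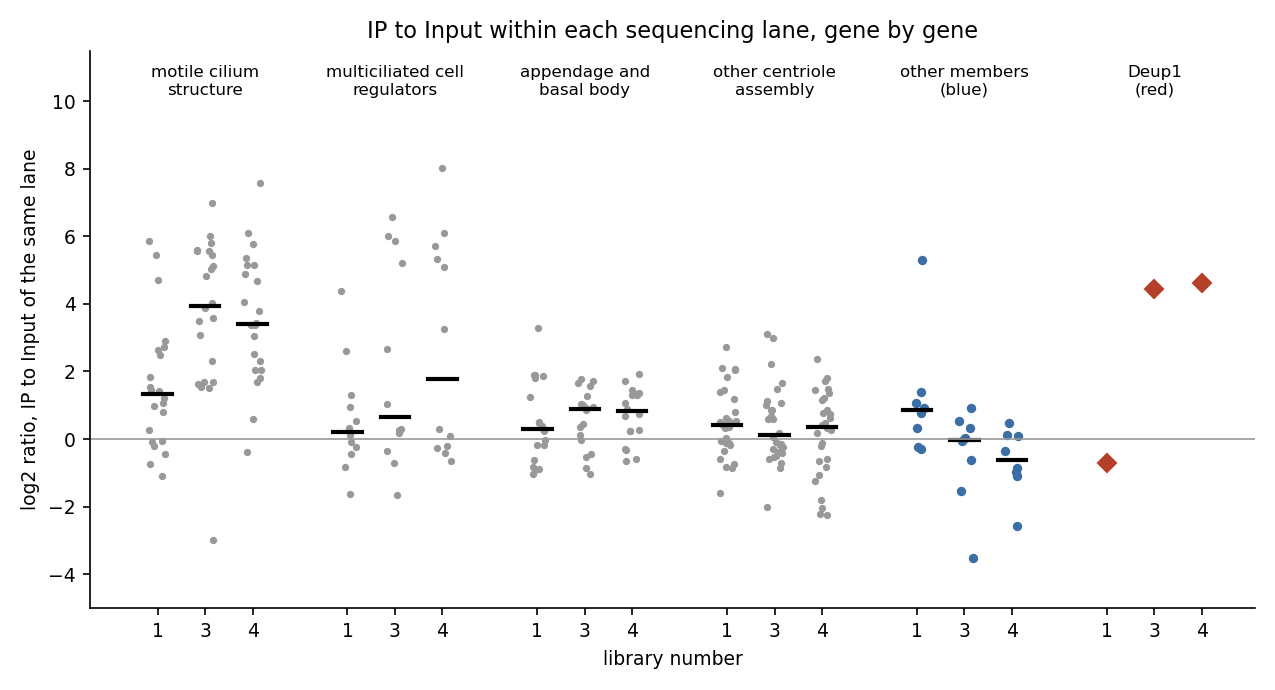
Log2 ratio of IP to the Input of the same sequencing lane for library numbers 1, 3 and 4, with a point per gene and black bars for medians. Deup1 (red) lies at -0.72, 4.44 and 4.61, against motile cilium medians of 1.33, 3.95 and 3.41, and the other tested members (blue) lie between -3.53 and 5.31, both extremes being Stil.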

How the data were processed

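Libraries were 3 IP (ribosome-bound RNA) and 4 Input (total RNA) of adult Dcdc2a-TRAP ES2575 mice. Each library has a deposited table of raw counts (whole numbers, by gene symbol). Per the submitters' processing notes, STAR 2.0.0e, HTSeq and mm10 were used; the sources used here do not give annotation, strand setting or kit. Summary lines naming no gene, 40.1% to 52.1% of the total, were left out of library sizes and of every test, and include reads aligned to several places.

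Genes were kept with filterByExpr (minimum count 10, total 15) of edgeR 4.0.16 in R 4.3.3, scaled with TMM, and tested over all 17375 kept genes with glmQLFit (robust) and glmQLFTest, with group as the only term and Benjamini-Hochberg adjustment. The SE is the log2 fold over the root of the test statistic. Lane ratios use log2 CPM with a prior count of 2. Lengths are unions of GENCODE M21 exons. Alternatives were DESeq2 1.42.0, limma-voom 3.58.1, 2 scalings, no filter, the replicate block and leaving out each library. The fits were tested on simulated data with the same spread for all genes and no outlying library. That test therefore does not cover a library like IP 1.

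The labels put the IP and Input of numbers 1, 3 and 4 on shared lanes. The test is unpaired, and these pairs enter only the lane ratios and the replicate block. Deviations of same-numbered libraries from group means correlated at 0.032, 0.043 and 0.026 across genes. For each IP library this was the highest of its 4 values, the others lying between -0.039 and 0.012. These correlations were small, but noise between libraries also lowers them, so they do not measure how strong any pairing was.

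The members, lists and tests were chosen with earlier results of these data known. Named were all members, Dcdc2a, Foxj1, Mcidas and Gpx8, from each further list up to 4 called genes of smallest p (otherwise 2), and the 3 genes most like Deup1, Ccno and Plk4. Dnai1 and Dnai2 were read under Dnaic1 and Dnaic2.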

Additional observations from a re-analysis of the deposited data

Results flagged for a closer look

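Among the 4 Inputs, Cdc20b in Input 2 (0.0224 CPM) was the only library with a count, 1 against 0 in the others. It was picked out because its gap to the nearest library equals the whole range, which any single count against 3 zeros does, so it says nothing further about Cdc20b.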

How the results depend on the processing

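Genes called higher over the whole table (633 with all libraries) numbered 1396 with DESeq2, 75 with limma-voom and 96 with the replicate block, and those called lower (376) 962, 189 and 33. Leaving out 1 library gave 4 to 2259 higher and 16 to 1724 lower, the most without IP 1. Members called higher (1) numbered 0 with limma-voom, with no low-count filter and with the replicate block, and 0 to 2 when 1 library was left out. The scalings by total counts and by DESeq2 size factors kept the Deup1 call. Directions of uncalled folds turned: Stil to -0.55 with the replicate block, and Mcidas to 0.22 with limma-voom and 0.27 with the block. Leaving out 1 library gave ranges of -0.50 to 0.13 for Plk4, -1.19 to 0.56 for Stil, -2.19 to 0.21 for Cep152, -0.49 to 0.075 for Ccp110 and -0.88 to 0.65 for Mcidas. The causes were not tested.

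For the further lists, DESeq2 called 3 centriole assembly, 5 appendage, 1 pericentriolar, 2 oscillator and 1 dividing-cell gene higher. Limma-voom called 0 appendage genes, 0 regulators and 3 motile cilium genes, and the replicate block 0 assembly genes, 0 appendage genes, 0 regulators and 5 motile cilium genes. Leaving out 1 library gave 0 to 5 assembly, 0 to 8 appendage, 0 to 3 pericentriolar, 0 to 5 regulator, 0 to 2 oscillator, 0 to 3 dividing-cell and 0 to 19 motile cilium genes, the most without IP 1. With the longest transcript as length, the IP levels per kilobase of Plk4, Sass6, Cep63 and Cep120 moved by more than their SD, and Cep63 stood above Deup1. Over the alternatives for the tested members, 95 values kept direction and side of the threshold, 12 turned direction, 9 lost the call (all Deup1) and 1 gained it (Cep63 without IP 1). Depth limits Cdc20b, and the spread of Stil and Cep152 between libraries limits their folds.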

Other observations

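The 3 other genes called higher in IP although IP 1 was below every Input, named after their values were seen, were Fbln7 (log2 fold 3.77, edgeR adjusted p = 0.0469), Styxl1 (5.87, 0.0333) and Zfp36l1 (2.95, 0.0375). Fbln7 encodes a matrix protein and Zfp36l1 an RNA-binding protein that promotes mRNA decay. Cetn2, a centrin of centrioles and basal bodies, also named after its values were seen, had 35.1, 402 and 237 CPM in IP 1, IP 3 and IP 4, and 34.8 to 46.4 CPM in the Inputs (log2 fold 2.39 ± 0.61 SE, edgeR adjusted p = 0.0535, and 1.38e-07 without IP 1).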
